A study of Mus musculus with 15 samples.

Results

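The genes described here encode the proteins of the cytosolic ribosome. They were taken by symbol from the array's platform annotation: a probe set counted where its only gene symbol was Rpl or Rps followed by a number (with the endings a, l, x or a further digit), or was Rplp0, Rplp1, Rplp2 or Rpsa. Pseudogenes and the Rps6k kinases were left out, and each gene was read from its probe set of highest mean signal over the 15 arrays. This gave 61 genes of 19938: 35 of the large subunit (Rpl), 23 of the small subunit (Rps, with Rpsa) and the 3 stalk genes.

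The ribosome is built from a small subunit, which reads the messenger RNA, and a large subunit, which joins the amino acids. The stalk, made of the acidic proteins RPLP1 and RPLP2 on RPLP0, recruits translation factors to the large subunit. Messenger RNAs of ribosomal proteins carry a 5' terminal oligopyrimidine (TOP) tract, a C at the cap followed by a run of C and T, through which the kinase mTOR and the cap-binding repressor LARP1 control their translation and stability. In skeletal muscle, ribosome content is known to follow growth and loading, and mTOR activity is known to respond to nutrient supply. Several ribosomal proteins have a second gene of their own, a paralogue: Rpl3l is expressed mostly in heart and skeletal muscle, and Rpl10l and Rpl39l mostly in the testis.

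RNA came from the gastrocnemius, a calf muscle, of male mice of the C57BL/6 strain, 12 months old, with 1 mouse per array. The 4 groups were wildtype mice on a control diet (n = 3), wildtype mice under calorie restriction, CR (n = 4), Sirt3 knockout mice on the control diet (n = 4) and Sirt3 knockout mice under CR (n = 4). Sirt3 encodes a deacetylase of the mitochondrial matrix. How the allele was made, whether it was deleted in the whole body, the extent and length of the restriction and the time since the last meal were not stated in the texts used. The design asks how the muscle responds to CR and whether that response differs without Sirt3.

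The TOP tract is the sequence feature that these messenger RNAs are known for, so the annotated start sites were searched for it. The motif was a C at the RefSeq transcription start followed by 4 bases that were each C or T, read on the gene's strand only. RefSeq (assembly GRCm38.p6) gave 58 promoters for 49 of the 61 genes, and 10 of the 58, or 17.2%, held the motif, against 823 of all 32851 promoters, or 2.51%. The 10 genes are printed with 10 bases before the start and 20 from it, 5' to 3', and the capitals mark the unbroken run of C and T from the annotated start. Rpl3l, the muscle paralogue, is given for comparison and has no such run.
Rps21, chr2:180257369-180257398, plus strand: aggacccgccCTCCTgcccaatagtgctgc
Rps6, chr4:86857348-86857377, minus strand: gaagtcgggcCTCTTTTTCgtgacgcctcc
Rpl28, chr7:4792955-4792984, plus strand: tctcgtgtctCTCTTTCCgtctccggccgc
Rps15a, chr7:118116128-118116157, minus strand: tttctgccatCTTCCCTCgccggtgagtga
Rplp2, chr7:141447641-141447670, plus strand: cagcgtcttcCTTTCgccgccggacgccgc
Rpl14, chr9:120571507-120571536, plus strand: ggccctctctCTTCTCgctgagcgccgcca
Rpl32l, chr10:20208429-20208458, plus strand: aaatgaccagCTTCTTCCTTggtgctgcct
Rpl38, chr11:114668570-114668599, plus strand: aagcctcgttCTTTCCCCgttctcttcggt
Rps10, chr17:27635225-27635254, minus strand: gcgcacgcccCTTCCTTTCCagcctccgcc
Rps18, chr17:33955646-33955675, minus strand: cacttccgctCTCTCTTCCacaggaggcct
Rpl3l, chr17:24727816-24727845, plus strand: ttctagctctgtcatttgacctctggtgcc
An annotated start can lie some bases from the start used in muscle, so a promoter without the motif says only that these letters are not at that base.

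All values are log2 signals after RMA, the array normalization that the submitters' processing notes name, and a change is a difference of 2 log2 signals. A gene was tested where its mean over the arrays reached 5.32, the 40th percentile of the annotated probe sets, which 12056 genes did. Of the ribosomal protein genes 60 were tested, and Rpl39l was not, with a mean of 3.93. Rpl12, at 5.37, lay just above that limit. A change was called where limma's adjusted p, over all 12056 genes, was below 0.05.

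The arrays were those of muscle, with all 18 muscle fibre markers above the filter and none of these below a mean of 9.87. Sirt3 itself ran from 6.38 to 6.68 in the wildtype mice and from 4.94 to 6.19 in the knockout mice, without overlap. Some arrays also carried transcripts of other tissues. Each marker was set against its own median over the 15 arrays, and these deviations were averaged over a list. For the 18 male germ cell markers the average was 4.13 log2 units for wildtype control replicate 3 and 3.56 for knockout control replicate 1, and for the other arrays it lay between -0.48 and 0.74. For the 8 pancreatic markers it was 7.16 for wildtype control replicate 2, and for the other arrays at most 0.73. For the 14 liver markers it was 2.58 for wildtype CR replicate 4, 1.55 for knockout control replicate 2, 1.41 for wildtype control replicate 1, 0.72 for knockout CR replicate 1, and at most 0.53 for the rest. Results are therefore also given without the 2 arrays that carried germ cell transcripts, and without the 4 arrays on which the germ cell, pancreatic or liver average was above 2. The latter setting keeps arrays with lower amounts of liver transcripts. In RNA from whole tissue, fewer cells of a type and less RNA per cell cannot be told apart.

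In wildtype mice, CR came with slightly higher signals for nearly the whole set of ribosomal proteins. The change was above 0 for 57 of the 60 tested genes, and its median was 0.19 on the log2 scale, against 62.3% of all genes above 0 and a median of 0.04. The quartiles of the change were 0.15 and 0.27, and the ends were Rpl10l at -0.28 and Rpl14 at 0.45. By limma 1 gene, Rpl10a, rose past the threshold and 0 fell, where 0.108% of all genes rose and 0.0166% fell. At an unadjusted p below 0.05, 43 were higher and 0 lower, where 9.72% of all genes were higher and 3.4% lower. In 36 genes every CR array lay above every control array, where 9.55% of all genes showed this.

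The mean signal of the 60 genes shows how the arrays stood. It was 9.26, 9.31 and 9.14 in the 3 wildtype control mice and 9.46, 9.44, 9.41 and 9.44 in the 4 wildtype CR mice, so these groups did not overlap. In the knockout it was 9.28, 9.36, 9.33 and 9.38 on the control diet and 9.37, 9.38, 9.41 and 9.53 under CR, where the lowest CR mouse lay just below the highest control mouse. As group means these are 9.24 ± 0.09 (SD, n = 3), 9.44 ± 0.02 (n = 4), 9.34 ± 0.04 (n = 4) and 9.42 ± 0.08 (n = 4), in the same order. The lowest and the highest array stood apart across most of the set: wildtype control replicate 3 was the lowest of the 15 for 43 of the 60 genes, and knockout CR replicate 4 was the highest for 39.

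**Figure D1:**
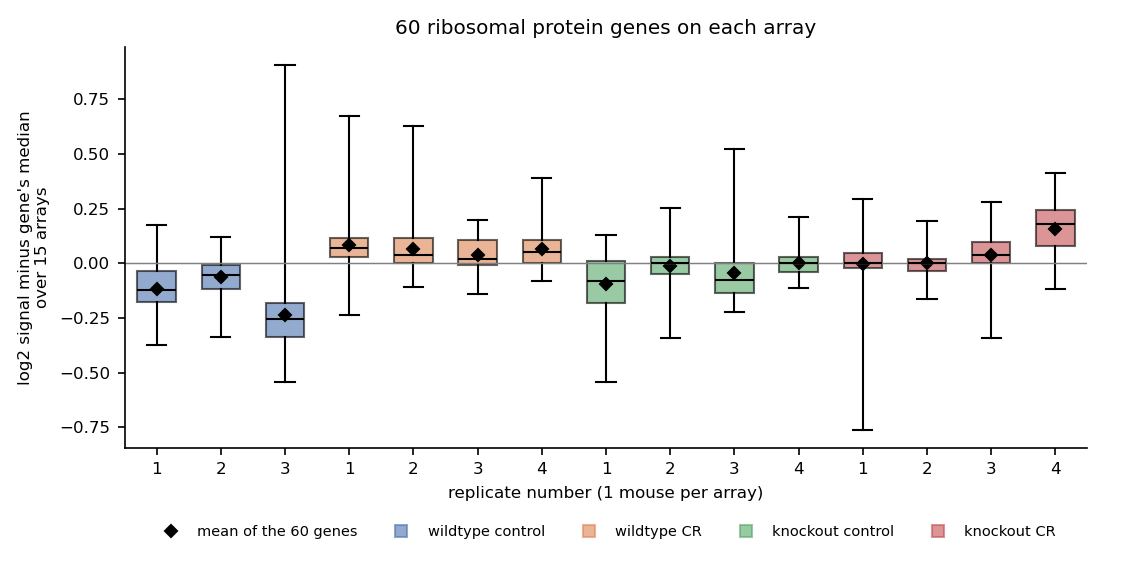
Log2 signal of the 60 tested ribosomal protein genes on each of the 15 arrays, each gene as a difference from its own median over the arrays; boxes span the quartiles with the median as a line, whiskers reach the lowest and highest gene, and diamonds are means. The box of wildtype control replicate 3 lies lowest and that of knockout CR replicate 4 highest, and the medians of the 4 wildtype CR boxes lie above those of the 3 wildtype control boxes.

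The lowest control array is also one of the 2 with germ cell transcripts. Without it the wildtype median was 0.14 with 59 of 60 genes higher, 15 genes were higher at an unadjusted p below 0.05 in place of 43, and Rpl10a was no longer called. Over all genes the median was then 0.02 in place of 0.04, and 1023 of 12056 passed that p in either direction in place of 1582. Without the 4 arrays above 2, the median was 0.16, again with 59 of 60 higher, against a median of 0.02 for all genes. The only wildtype control left there is replicate 1, which carried liver transcripts and had the highest macrophage average of all arrays, 0.49. The p-values of that setting assume that this 1 mouse varies like the other groups.

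Markers of other cells moved between the same wildtype groups. The average deviation of the macrophage and leukocyte markers, 15 of 16 listed, was 0.49, 0.09 and 0.14 in the controls and 0.01, -0.15, -0.24 and -0.02 under CR. That of the fibroblast and tendon markers, 10 of 10 listed, was 0.27, 0.42 and 0.26 in the controls and -0.34, 0.07, 0.02 and -0.15 under CR. Neither pair of groups overlapped, and both lists were lower under CR, opposite to the ribosomal proteins. None of their genes was called, although 7 genes of each list were lower at an unadjusted p below 0.05. Other lists lay in the direction of the ribosomal proteins. Of the muscle fibre markers 15 of 18 were higher with a median of 0.09, and 1 was called. At an unadjusted p below 0.05, 8 of them were higher. Of the adipocyte markers 6 of 7 were higher with a median of 0.41, and 0 were called. At an unadjusted p below 0.05, 0 adipocyte markers were higher and 1 was lower. Both erythroid genes tested, of 5 listed, were higher, and 0 were called. The part of these lists in the ribosomal protein values was not tested.

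Rpl10a, a protein of the large subunit's L1 stalk, was the gene called in the wildtype. Its signal was 11.07, 11.10 and 10.97 in the control mice and 11.40, 11.41, 11.32 and 11.41 under CR. All CR mice lay above all control mice, by 0.33 ± 0.06 (SE) on average (limma, adjusted p = 0.0499). An exact two-sided permutation test gave p = 0.0571, the smallest that 3 against 4 arrays allow. The call stands at the threshold: over 26 alternative settings its adjusted p ran from 0.0226 to 0.414 and passed in 4. Leaving out any 1 array ended it, except wildtype control replicate 2 and knockout control replicate 1.

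In the knockout mice Rpl10a was at 11.14, 11.25, 11.16 and 11.24 on the control diet and at 11.31, 11.41, 11.37 and 11.46 under CR. These groups did not overlap either, and the change was 0.19 ± 0.05 (SE; limma, adjusted p = 0.220; exact permutation p = 0.0286, the smallest that 4 against 4 allow). Averaged over both genotypes Rpl10a rose by 0.26 ± 0.04 (limma, adjusted p = 0.0127).

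Rpl36 and Rpl36a, both large subunit proteins, were the others called in the average over genotypes. Rpl36 was at 10.48, 10.46 and 10.33 in wildtype controls and 10.78, 10.76, 10.77 and 10.74 under CR, and at 10.45, 10.62, 10.55 and 10.64 in knockout controls and 10.63, 10.76, 10.85 and 10.89 under CR. The wildtype groups were apart, and in the knockout the lowest CR mouse lay among the controls. The averaged change was 0.28 ± 0.05 (limma, adjusted p = 0.0269). Rpl36a was at 9.40, 9.47 and 9.18 against 9.68, 9.68, 9.61 and 9.60 in the wildtype, and at 9.42, 9.56, 9.46 and 9.58 against 9.79, 9.61, 9.68 and 9.81 in the knockout. It was higher in every CR mouse than in every control mouse of its genotype, and rose by 0.26 ± 0.05 on average (limma, adjusted p = 0.0380).

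**Figure D2:**
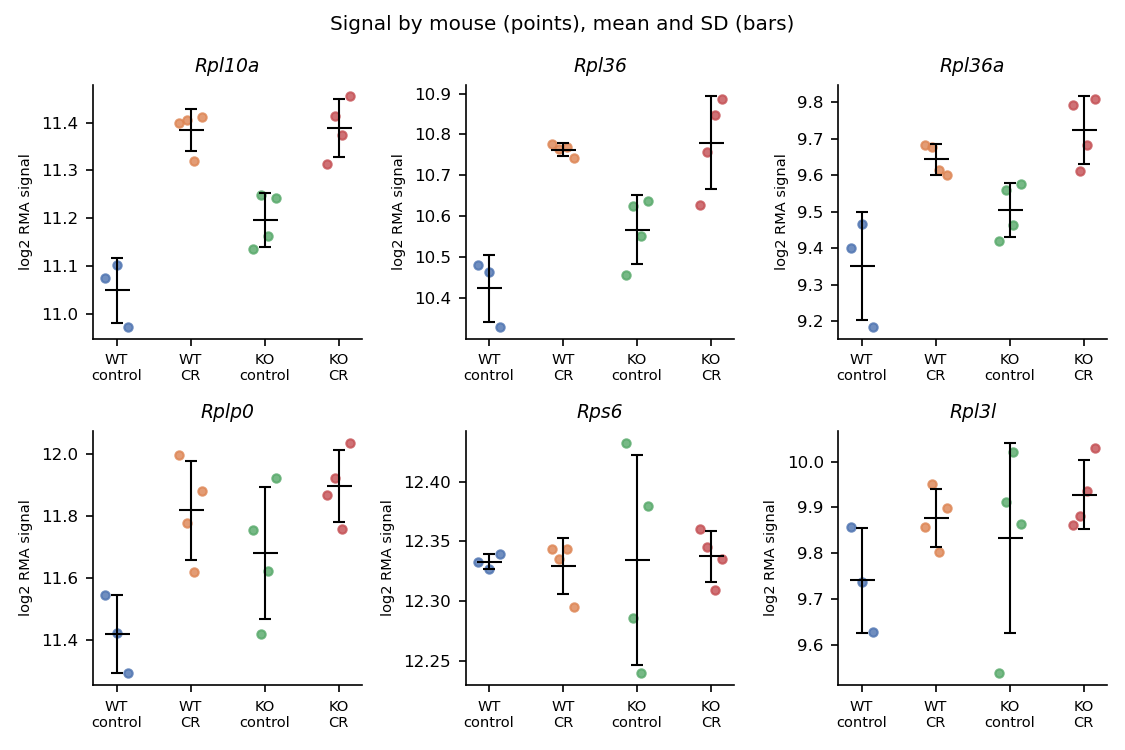
Log2 signal of 6 ribosomal protein genes by mouse in the 4 groups (WT, wildtype; KO, Sirt3 knockout), with points for mice, the long bar for the mean and the error bars for 1 SD; each panel has its own axis, which does not start at 0. Rpl10a, Rpl36 and Rpl36a are higher under CR in both genotypes, Rplp0 varies widely within groups, and Rps6 hardly differs between groups.

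Over both genotypes, 57 of 60 genes were higher under CR, with a median of 0.14 against 0.03 for all genes, 59.5% of which were above 0. The 3 called genes stand beside 0.647% of all genes called higher and 0.423% called lower, and 40 genes were higher and 0 lower at an unadjusted p below 0.05, where 13.7% of all genes were higher and 6.4% lower. The next by p were Rpl13, at an adjusted p of 0.0525, and Rps28, at 0.0541. The count of 3 moved with single arrays, and so did the 129 calls over all genes. The count was 6 without wildtype control replicate 2, where 68 of all genes were called. It was 1 without wildtype control replicate 3, wildtype CR replicate 1 or 2, or knockout CR replicate 2, 3 or 4. All genes called were then 27, 23, 33, 30, 30 and 23, in that order. Without the 2 germ cell arrays 1 gene of the set and 45 of all genes were called. In that setting 25 genes of the set were higher at an unadjusted p below 0.05, where 1824 of all genes passed in either direction. Without the 4 arrays the median change of the set was 0.12.

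The higher signals in the wildtype were found in both subunits. Of the large subunit genes 33 of 34 were higher with a median of 0.19, and of the small subunit genes 21 of 23 with a median of 0.22. By mean signal, the median change was 0.18 for the 12 genes with a mean above 11, 0.21 for the 28 between 9 and 11, and 0.19 for the 20 below 9. After Rpl10a, the smallest p belonged to Rpl36, with a change of 0.34 ± 0.07 (limma, adjusted p = 0.108), and to Rps28, a small subunit protein, with 0.36 ± 0.08 (adjusted p = 0.117). Rps28 was at 8.92, 9.21 and 8.98 in the controls and 9.41, 9.31, 9.37 and 9.52 under CR, without overlap. It passed the threshold, at an adjusted p of 0.0405, when wildtype control replicate 2 was left out. Rps12, of the small subunit, was at 8.55, 8.85 and 8.39 against 9.04, 8.96, 8.90 and 9.02, and changed by 0.39 ± 0.10 (adjusted p = 0.154).

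The 3 stalk genes were higher under CR in both genotypes, and none passed the threshold. Rplp0, the stalk's base, was at 11.55, 11.42 and 11.29 in wildtype controls and 12.00, 11.78, 11.62 and 11.88 under CR. These groups did not overlap, and the change was 0.40 ± 0.12 (limma, adjusted p = 0.187). In the knockout Rplp0 was at 11.76, 11.42, 11.62 and 11.92 against 11.87, 11.92, 11.76 and 12.04, with overlap, a change of 0.22 and an adjusted p of 0.452. Rplp0 is a common reference gene for quantitative PCR, and its signal ranged over 0.75 log2 units among the 15 mice. Rplp1 was higher by 0.20 and 0.19 in wildtype and knockout (limma, adjusted p = 0.308 and 0.337). Rplp2 was higher by 0.25 and 0.18 (adjusted p = 0.330 and 0.494).

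Rps6, the small subunit protein that the S6 kinases phosphorylate, was among the genes with a change nearest to 0. It was at 12.33, 12.33 and 12.34 in wildtype controls and 12.34, 12.34, 12.34 and 12.29 under CR, and its change was -0.00 (limma, adjusted p = 0.982). In the knockout it was at 12.43, 12.29, 12.24 and 12.38 against 12.36, 12.35, 12.31 and 12.34, a change of 0.00 (adjusted p = 0.985). Rps6 had the highest mean signal of the set, followed by Rpl21 and Rpl28, and whether its probes were close to their upper limit was not tested. Rpl21, a large subunit protein, was higher by 0.13 ± 0.07 in the wildtype (adjusted p = 0.423). Rpl28, with the smallest residual SD of the set (0.0417), was at 11.91, 11.83 and 11.84 against 12.07, 12.02, 12.00 and 12.04, and the change of 0.17 ± 0.05 separated the wildtype groups without passing the threshold (adjusted p = 0.195).

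The spread between mice of a group differed widely among the genes. The residual SD had a median of 0.101 over the set, against 0.134 over all genes. After Rpl28 the smallest were Rps15, at 0.0441, and Rps6, at 0.0489, and the largest were Rpl10l, at 0.316, Rpl14, at 0.260, and Rps9, at 0.233. Rpl14 was at 5.82, 5.74 and 5.40 in wildtype controls and 6.30, 6.48, 5.78 and 5.86 under CR. Its change was the largest of the set in the wildtype, at 0.45 ± 0.18, and it overlapped between the groups (limma, adjusted p = 0.305). Rpl12, the tested gene of lowest mean signal, changed by 0.09 ± 0.16 (adjusted p = 0.816).

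Rpl3l, which replaces RPL3 in ribosomes of striated muscle, is the muscle paralogue of the set. RPL3 itself was measured here only by probe sets that name several genes, and these were not used. Rpl3l was at 9.86, 9.74 and 9.63 in wildtype controls and 9.86, 9.95, 9.80 and 9.90 under CR, and at 9.54, 9.91, 10.02 and 9.86 in knockout controls and 9.86, 9.88, 9.94 and 10.03 under CR. The groups overlapped in each genotype. The changes were 0.14 ± 0.10 in the wildtype (limma, adjusted p = 0.539; exact permutation p = 0.114) and 0.09 ± 0.09 in the knockout (adjusted p = 0.697; exact permutation p = 0.514). The knockout value rests on knockout control replicate 1, an array with germ cell transcripts, and was -0.0047 without it. The responses differed by -0.04 ± 0.13 (adjusted p = 0.985), and the genotypes by 0.09 on the control diet and 0.05 under CR (adjusted p = 0.879 and 0.993).

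None of the other paralogues passed the threshold in either genotype. Rps27l, a p53-inducible relative of Rps27, was at 9.74, 9.92 and 9.61 in wildtype controls and between 9.83 and 10.07 in the 4 wildtype CR mice, with overlap, and changed by 0.23 ± 0.09 (limma, adjusted p = 0.284). Rpl7l1, a relative of Rpl7, was at 7.90, 7.94 and 7.79 against 8.02, 8.12, 7.97 and 7.99, without overlap, and changed by 0.15 ± 0.07 (adjusted p = 0.366). Rpl32l changed by 0.19 ± 0.09 (adjusted p = 0.397) and Rps4l by -0.05 ± 0.09 (adjusted p = 0.820). In the knockout the changes of Rps27l, Rpl7l1, Rpl32l and Rps4l were -0.03, -0.09, 0.11 and 0.14. Rps4x, the X-linked gene for the standard RPS4 protein, was at 9.43, 9.52 and 9.14 against 9.67, 9.65, 9.59 and 9.70 in the wildtype, and at 9.25, 9.46, 9.37 and 9.55 against 9.67, 9.54, 9.69 and 9.83 in the knockout. Its changes of 0.29 ± 0.10 and 0.27 ± 0.09 did not pass the threshold (limma, adjusted p = 0.232 and 0.263), and they differed by -0.01 ± 0.13 (adjusted p = 0.994).

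The paralogues known from the testis were highest on an array with sperm transcripts. Rpl10l was at 7.09 on wildtype control replicate 3, and its other 14 values lay between 5.42 and 6.38. Rpl39l was at 5.39 on that array and at 4.91 on knockout control replicate 1, and its other 13 values lay between 3.42 and 3.98. Prm1, which encodes a sperm protamine, was at 11.82 and 11.40 on those same arrays. Rpl10l gave the lowest wildtype change of the set, -0.28 ± 0.22, with overlap between the groups (limma, adjusted p = 0.567).

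**Figure D3:**
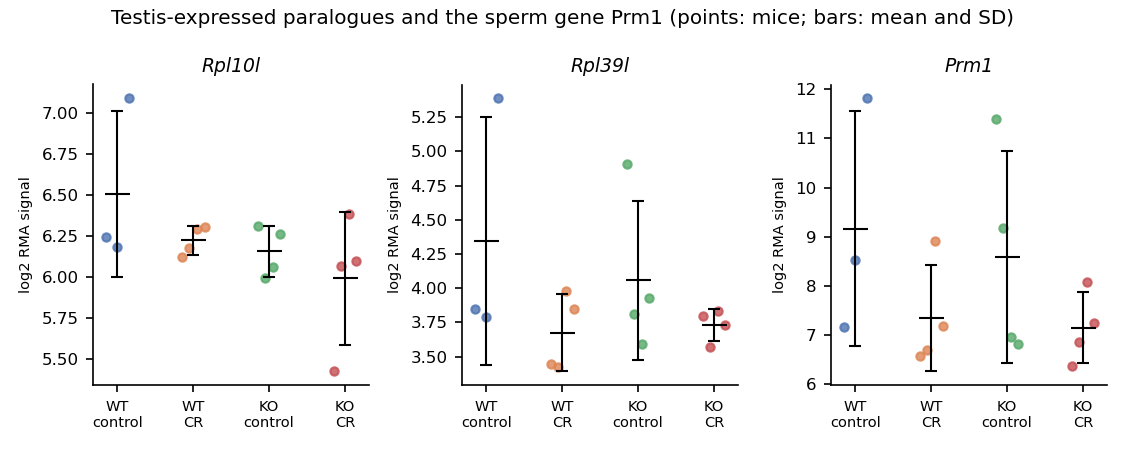
Log2 signal of Rpl10l, Rpl39l and the sperm gene Prm1 by mouse in the 4 groups (WT, wildtype; KO, Sirt3 knockout), with points for mice, the long bar for the mean and error bars for 1 SD; axes differ and do not start at 0. Wildtype control replicate 3 is highest in all 3 panels (7.09, 5.39 and 11.82), and knockout control replicate 1 is second in Rpl39l and Prm1 (4.91 and 11.40).

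In Sirt3 knockout mice the set was also mostly higher under CR, by a smaller measured amount and with 0 genes called in either direction, where 0.00829% of all genes rose and 0.0581% fell. The change was above 0 for 52 of 60 genes with a median of 0.10, against 53.0% of all genes and a median of 0.01. At an unadjusted p below 0.05, 11 genes were higher and 0 lower, where 6.79% of all genes were higher and 5.17% lower. In 4 genes every CR array lay above every control array and in 0 below, where 3.91% and 3.08% of all genes did. After Rpl10a, the smallest p belonged to Rpl36, with 0.21 ± 0.07 (limma, adjusted p = 0.252), and Rpl36a, with 0.22 ± 0.07 (adjusted p = 0.259). The lowest were Rps9 at -0.18, Rpl10l at -0.16 and Rps3a1 at -0.12.

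The size of the knockout values depended on single arrays. Without knockout CR replicate 4, the highest array for most of the set, the median was 0.06 with 48 genes higher, and 5 in place of 11 passed an unadjusted p of 0.05. That count was 6 without knockout control replicate 3 and 7 without knockout CR replicate 3, and it was 4 when each array was centred on its median. Over all genes 1442 passed that p in either direction, and 1298 did without knockout CR replicate 4. They were 1142 without knockout control replicate 3, 1063 without knockout CR replicate 3 and 1343 with centring. Without knockout control replicate 1, the array with germ cell transcripts, the median was 0.09 and 47 genes were higher. The fibroblast and tendon markers stood at -0.46 on knockout CR replicate 4, their lowest value on any array, and at -0.02, -0.25 and -0.01 in the other CR mice. The 2 erythroid genes stood between 0.26 and 0.35 in the knockout CR mice and between -0.19 and 0.10 in the knockout controls, without overlap. Adipocyte markers were higher under CR in 7 of 7, with a median of 0.52 and 3 at an unadjusted p below 0.05, and muscle fibre markers in 13 of 18, with a median of 0.08 and 7 higher and 2 lower at that p. Macrophage markers were higher in 1 of 13, with a median of -0.26. By limma 0 genes of these lists were called in the knockout. The part of these lists in the knockout values was not tested.

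**Figure D4:**
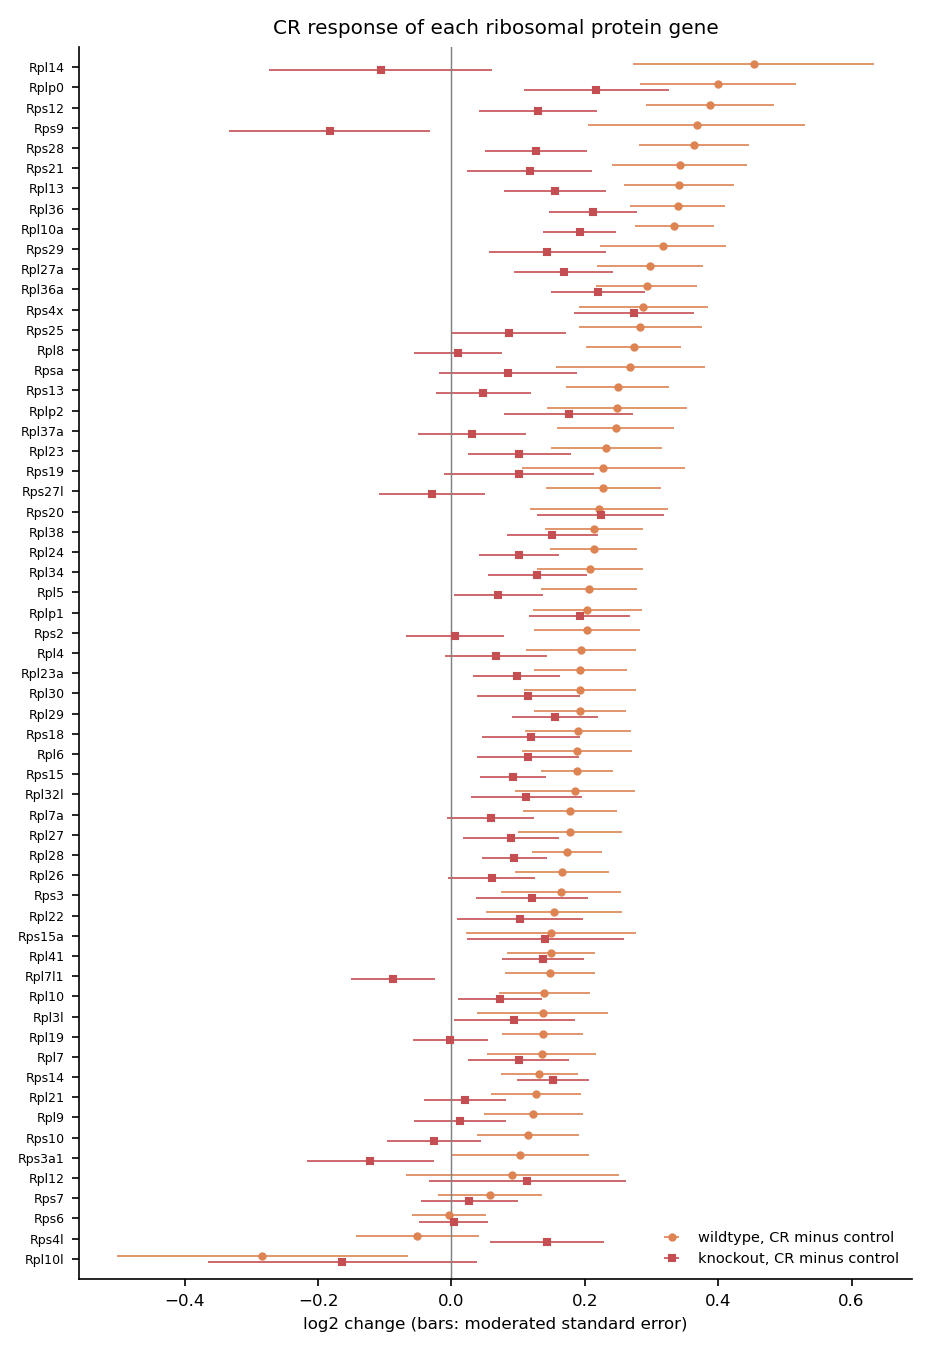
Log2 change under CR of each of the 60 tested genes, in wildtype mice (orange circles) and Sirt3 knockout mice (red squares), ordered by the wildtype change, with bars for the moderated standard error of limma. The wildtype change is above 0 for 57 genes and the knockout change for 52, and most knockout points lie left of their wildtype points.

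The 2 responses were not shown to differ for any single gene. The knockout change was the smaller one in 54 of 60 genes, with a median difference of -0.11 against -0.03 for all genes, 43.1% of which were above 0. By limma 0 genes were called, where 0.0% of all genes were. At an unadjusted p below 0.05, 5 were lower and 0 higher, where 4.39% of all genes were lower and 1.33% higher. These 5 were Rpl7l1, Rpl8, Rpl14, Rps9 and Rps27l, and their differences were -0.24 ± 0.09, -0.26 ± 0.10, -0.56 ± 0.25, -0.55 ± 0.22 and -0.26 ± 0.12, the smallest adjusted p being 0.828. The difference was also below 0 for 67 of 77 mitochondrial ribosomal proteins, taken up below, with a median of -0.13. At an unadjusted p below 0.05, 12 of them were lower and 0 higher. Ribosome biogenesis factors were above 0 in 20 of 65, with a median of -0.08, and initiation factors in 9 of 36. Elongation factors were above 0 in 6 of 11, and other TOP messenger RNAs in 6 of 9. Rps9 has a second probe set of similar signal, whose changes were 0.15 in the wildtype and 0.01 in the knockout, against 0.37 and -0.18 for the one used. Without wildtype control replicate 3 the median difference was -0.06, with 18 of 60 genes above 0 in place of 6, and the count at an unadjusted p below 0.05 was 0. That count was 10 without wildtype control replicate 2 and ran from 2 to 7 without any 1 of the other arrays. Over all genes 689 passed that p in either direction. They were 767 without wildtype control replicate 3 and 889 without wildtype control replicate 2. Rpl8, a large subunit protein, was at 8.96, 9.11 and 8.86 against 9.22, 9.26, 9.25 and 9.27 in the wildtype and at 8.98, 9.17, 9.14 and 9.20 against 9.04, 9.15, 9.16 and 9.18 in the knockout. Its wildtype groups lay apart and its knockout groups overlapped.

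Between genotypes no ribosomal protein gene passed the threshold on either diet. These comparisons use the same control and CR arrays as the diet comparisons, so they are not separate evidence. On the control diet 55 of 60 genes were higher in the knockout, with a median of 0.11 against 0.02 for all genes, 57.6% of which were higher. At an unadjusted p below 0.05, 8 were higher and 0 lower, where 5.08% of all genes were higher and 1.94% lower. In 5 every knockout array lay above every wildtype array and in 0 below, where 3.71% and 1.29% of all genes did. The smallest p belonged to Rps12, with 0.27 ± 0.10, and Rpl7l1, with 0.19 ± 0.07 (limma, adjusted p = 0.612 for both), and then to Rpl10a, with 0.15 (adjusted p = 0.662). Without wildtype control replicate 3 the median was 0.06 and 0 genes passed an unadjusted p of 0.05, where 781 of all genes did in place of 847. Without wildtype control replicate 2 the median was 0.16 and 19 genes passed, where 872 of all genes did. The count was also 0 when only the groups compared were fitted, where 476 of all genes passed. Of the mitochondrial ribosomal proteins, taken up below, 71 of 77 were higher in the knockout on the control diet, with a median of 0.12. At that p 17 of them were higher and 1 lower.

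Under CR about as many genes were higher as lower in the knockout. The knockout was higher in 29 of 60 genes and the median difference was -0.00, with 46.7% of all genes higher and 0.0166% called lower. Single arrays moved this: 15 of 60 were higher, with a median of -0.04, without knockout CR replicate 4, and 41 of 60, with a median of 0.02, without knockout CR replicate 1. At an unadjusted p below 0.05, 1 gene was lower in the knockout and 0 higher, where 3.34% of all genes were lower and 2.58% higher. That gene was Rps9, of the small subunit, at 9.07, 8.98, 8.34 and 8.66 in wildtype CR mice and 8.12, 8.33, 8.40 and 8.39 in knockout CR mice. Its groups overlapped through the third wildtype mouse, and the difference was -0.45 ± 0.15 (limma, adjusted p = 0.722; exact permutation p = 0.0857). The second probe set of Rps9 gave 0.06, the opposite direction. The next were Rpl8, at -0.12 ± 0.07 (adjusted p = 0.865), and Rps3a1, a small subunit protein, at -0.16 (adjusted p = 0.870). Rpl8 was lower in every knockout CR mouse than in every wildtype CR mouse (exact permutation p = 0.0286, the smallest that 4 against 4 allow). It was the 1 gene of the 60 whose groups did not overlap here, where 2.76% of all genes were lower without overlap. Rps3a1 has 1 probe set, of low mean signal (5.97). Averaged over diets, 52 of 60 genes were higher in the knockout with a median of 0.06, where 53.2% of all genes were higher. At an unadjusted p below 0.05, 5 were higher and 0 lower, where 4.33% of all genes were higher and 2.85% lower. The smallest p there belonged to Rpl29, at 0.12 (adjusted p = 0.645), Rps15, at 0.08, and Rpl36a, at 0.12 (adjusted p = 0.662 for both). Without wildtype control replicate 3 this median was 0.03 with 42 of 60 genes higher and 1 at an unadjusted p below 0.05, and without knockout CR replicate 4 it was 0.04 with 45 higher and 1. Without wildtype control replicate 2 it was 0.08, and 10 genes were higher and 1 lower at that p. Over all genes 866 passed that p in either direction. They were 857 without wildtype control replicate 3, 781 without knockout CR replicate 4 and 761 without wildtype control replicate 2. Averaged over diets, 61 of 77 mitochondrial ribosomal proteins were higher in the knockout, with a median of 0.06.

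All probe sets of the same genes, with the one used above for each gene among them, gave the same picture of direction. The counts here therefore hold the values above again. The 61 genes had 217 probe sets, up to 14 for Rps12, and 39 genes had more than 1. In the wildtype CR comparison 211 of the 217 were higher with a median of 0.20, and for 37 of the 39 genes all probe sets were higher. In the knockout 195 were higher with a median of 0.10, and all were higher for 32 of the 39 genes, all lower for 1 and mixed for 6. Under CR the probe sets of the knockout were higher than those of the wildtype in 117 of 217, and mixed in direction for 19 genes. These probe sets are not independent, since 19 of them had the same values as another on every array. Ribosomal protein genes also have many near-identical pseudogene copies, so which copy a probe read is uncertain.

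The genes with a TOP motif at the annotated start, printed above, are set beside the rest without a test. In the wildtype 9 of these 10 genes were higher with a median of 0.19, and the 38 tested genes with a promoter and no motif had a median of 0.20. The 10 ran from -0.00 for Rps6 to 0.45 for Rpl14. In the knockout the medians were 0.11 and 0.09.

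Other genes of the translation machinery were taken from lists of their own, and in the wildtype none was called. Fau, whose product carries the small subunit protein RPS30 and whose symbol lies outside the rule, was higher by 0.15 in both genotypes (limma, adjusted p = 0.325 and 0.328). Of the mitochondrial ribosomal proteins, which serve the separate ribosome of that organelle, 61 of 77 were higher in the wildtype with a median of 0.07, and 20 of 77 in the knockout with a median of -0.07. Elongation factors were higher in 6 of 11, with a median of 0.03, and initiation factors in 18 of 36, with a median of 0.00. In the knockout these counts were 5 of 11 and 15 of 36.

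The lists of genes that make ribosomes or control their messenger RNAs also had 0 genes called in either genotype. Ribosome biogenesis factors were higher in 37 of 65 in the wildtype, with a median of 0.02, and in 20 of 65 in the knockout, with a median of -0.02. Their smallest p in the knockout belonged to Rrp12, an export factor of preribosomes, at -0.40 (limma, adjusted p = 0.123), and Ncl, nucleolin, at -0.26 (adjusted p = 0.214). RNA polymerase I genes, which transcribe ribosomal RNA, were higher in 10 of 15 with a median of 0.03 in the wildtype and in 7 of 15 with a median of -0.03 in the knockout. Other TOP messenger RNAs were higher in 3 of 9 in the wildtype, where nucleophosmin, Npm1, had the smallest p with a change of -0.39 (adjusted p = 0.255), and in 5 of 9 in the knockout. The S6 kinases and regulators of TOP translation were higher in 16 of 20 in the wildtype, with a median of 0.10, and in 8 of 20 in the knockout, with a median of -0.03. Tsc1, an inhibitor of mTOR complex 1, was the only gene of these lists called in the average over genotypes, at 0.25 ± 0.05 (adjusted p = 0.0328). Its wildtype change was 0.37 ± 0.07 (limma, adjusted p = 0.0637), and the knockout response differed from it by -0.25 ± 0.09 (adjusted p = 0.828). On the control diet Tsc1 was higher in the knockout by 0.25 ± 0.07 (adjusted p = 0.599).

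**Figure D5:**
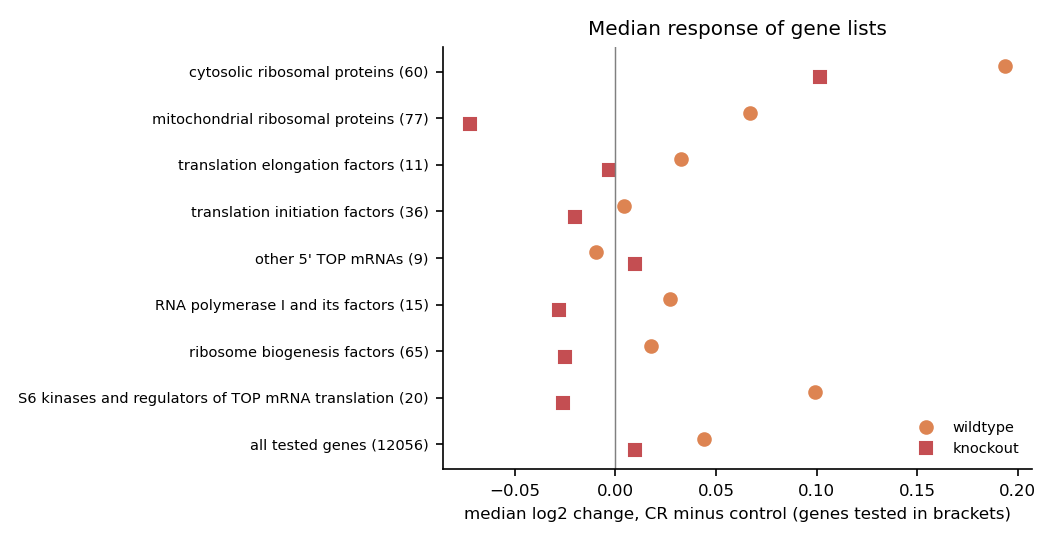
Median log2 change under CR for cytosolic ribosomal proteins and related gene lists, in wildtype (circles) and Sirt3 knockout mice (squares), with the number of genes tested in brackets; medians are descriptions and were not tested. Of the lists plotted, which leave out Fau, cytosolic ribosomal proteins have the highest median in both genotypes, 0.19 and 0.10, against 0.04 and 0.01 for all tested genes.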

How the data were processed

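The authors deposited log2 values that RMA, a method of background correction and quantile normalization, made from biotin-labelled arrays, per the submitters' processing notes and the labels' protocols. RMA's version and any scan batch: not given in the sources used here. The table held 35556 probe sets on 15 arrays, with array medians from 5.40 to 5.48, and was not normalized again. Probe sets with 1 symbol in the platform annotation (21789) were used; 1621 with several symbols were left out, which removed 17 ribosomal protein genes, Rpl3 among them. Intensity on so few arrays, 3 or 4 a group, limits the precision.

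One limma model (limma 3.58.1, R 4.3.3) held a mean for each of the 4 groups, and 7 contrasts were tested two-sided with Benjamini-Hochberg adjustment over 12056 genes. Errors beside changes are moderated standard errors. Single values were tested by exact permutation in Python 3.11.15. The fit was tested on simulated data.

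The members and lists were chosen with earlier results of these data known. Genes named are those past the threshold, otherwise the 3 smallest p per contrast, the paralogues, the stalk genes, Rps6, and the 3 highest and 3 lowest in mean and in residual SD. Rps12 and Rps28 in the wildtype, the 5 genes of the difference, the ends of each range and Prm1 were named after their values were seen. Of each list, genes past the threshold or with the smallest p are named.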

Additional observations from a re-analysis of the deposited data

Results flagged for a closer look

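Of 45 groups of 4 arrays examined for an outlying array, 1 had one, where chance gives about 1 in 20: wildtype CR replicate 3 had Rpl10a at 11.32, below the other wildtype CR mice at 11.40, 11.41 and 11.41. It still lay above all wildtype control mice. Without it the wildtype change of Rpl10a was 0.36 (limma, adjusted p = 0.0587).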

How the results depend on the processing

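Each count and median was computed again under 26 alternatives, 15 of which left out 1 array. The median change of the set moved by less than 0.0596, the pooled SD of the array means, under all of them. Leaving out 1 array can hardly move it by more than that, so this limit does not show that the medians are stable. With 1 array left out they ran from 0.14 to 0.24 in the wildtype, 0.06 to 0.12 in the knockout and 0.12 to 0.17 in their average. The counts of calls moved, and the causes were not tested. The 1 gene called in the wildtype became 0 with no filter, with each gene's probe sets averaged, with quantile normalization and with arrays centred on their median. It also became 0 with only the groups compared, with array weights, and without the 2 germ cell arrays. All genes called were 15, and in these 7 settings they were 4, 8, 8, 4, 1, 15 and 4, in that order. With 1 array left out the count of the set ran from 0 to 4, and that of all genes from 4 to 41. The 3 called in the average became 7 with the filter at the 60th percentile, 9 with a trended robust prior and 1 without the 2 arrays. With 1 array left out that count ran from 1 to 6, and that of all genes from 23 to 260. In the wildtype, genes of the set higher at an unadjusted p below 0.05 were 28 with array weights and 15 without the 2 arrays (15 to 43 with 1 array left out). In the knockout they were 4 with centring and 5 with only the groups compared (5 to 13), and in the average 25 without the 2 arrays (30 to 44). Over all genes, 1582 passed that p in either direction in the wildtype, 1471 with array weights and 1227 without the 2 arrays. In the knockout 1442 did, 1343 with centring and 1349 with only the groups compared, and in the average 2428, and 1824 without the 2 arrays. All genes called in the average were 129, and 189 of 7816 with the 60th percentile filter, 169 with the trended prior and 45 without the 2 arrays. In the knockout, the change of Rpl3l turned to -0.0047 without knockout control replicate 1, and reached 0.16 without knockout control replicate 3. The former value also holds without the 2 arrays, or without the 4 arrays with an other-tissue average above 2.

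In the average, Rpl10a kept its call in 25 of 26 alternatives (adjusted p = 0.00592 to 0.173), Rpl36 in 17 (0.0114 to 0.224) and Rpl36a in 9 (0.0235 to 0.224). Same-numbered arrays did not all deviate together: correlations ran from -0.64 to 0.50, the highest for wildtype CR and knockout CR replicates 3. Differently numbered arrays were not compared in this way, and the numbers were not taken to pair the mice. With the replicate number as a block, 0 genes of the set were called in the wildtype and 1 in the average, where 1 and 36 of all genes were. The block took the calls of Rpl36 and Rpl36a in the average to adjusted p = 0.0678 and 0.0816 (limma). Near-identical gene copies, low signals such as Rpl12's and 3 wildtype controls limit what these arrays can show.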
